A study of Drosophila melanogaster with 144 samples.

Results

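The 6 genes described here are CG5853, CG31300, CG33110, CG14186, Myo28B1 and the gene with the identifier FBgn0033981. They were selected on their measured values in these libraries, because the size of their 24-h rhythm in heads differed between 2 lines of Drosophila melanogaster. They are 6 of the 17381 genes in the count table, and all 6 were among the 10894 genes that passed a filter on low counts. In a fit over those 10894 genes, 19 genes (0.174%) passed an adjusted p of 0.05 for the line difference of the 24-h rhythm, and the 6 were among the 19. Myo28B1 lay nearest to the threshold of the 6, with a difference vector of 0.16 on the log2 scale, and Alp9, the first gene outside it, had one of 1.54 at a mean level of 1.71 CPM (a gene's counts scaled to a common library total). The 24-h time courses of the 6 are therefore a description with no test, and tests are given only for measures that the choice did not use, namely mean level by line and sex, the sexes' rhythms, 12-h rhythms and replicate numbers.

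The study asked which genes go with a long circadian period, the length of the daily cycle that an animal keeps in constant darkness. Its lines were DGRP_892, which has a long period and comes from a panel of inbred wild-derived lines (the Drosophila Genetic Reference Panel), and Canton-S B, with a period of 24 h, whose cultures the labels list as w1118; Canton-S B. All groups were virgin adults held for 3 days in cycles of 12 h of light and 12 h of darkness, then for 3 days in constant darkness, and frozen every 2 h at 12 circadian times (CT), with the subjective day before CT12 and the subjective night after it. Females and males were kept apart, and each of the 144 libraries held poly(A) RNA of 150 pooled heads, so variation between single flies is not seen. The 48 groups of line, sex and time held 3 libraries each, numbered as replicates 1 to 3 by the labels, which state that the collection was run 3 times. Each line is a single stock, so a line difference belongs to these 2 stocks. Light cycles ran in opposite phase in 2 incubators. The sources used here do not give which circadian times each incubator supplied, so incubator and time cannot be told apart, nor whether circadian time was adjusted for the longer period of DGRP_892.

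Library totals ran from 11664364 to 37335310 gene counts with a median of 15235019, in 48 deeper libraries (25454054 counts and up, 26 of them Canton-S B) and 96 shallower ones. The 6 genes had between 213 and 5087 counts in every library, so none of their values rests on a handful of reads. Levels are given in CPM after TMM scaling. Markers of photoreceptors, such as ninaE, and of neurons and glia were abundant: the summed photoreceptor markers ran from 52500 to 105000 CPM. Of 6 ovary markers only vas was among the genes tested, and it did not exceed 2.55 CPM. Of 6 markers of testis and accessory gland 2 were tested, Mst87F and Acp36DE. Their sum had a median below 1 CPM in each line and sex but reached 70.2 CPM in a male library.

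The fly clock is a feedback loop in which the proteins CLK and CYC switch on per and tim, whose products then shut off their own transcription. It runs in clock neurons, photoreceptors, glia and fat body of the head, and it drives daily cycles in many other transcripts, some high by day and others by night. Little is known of what the 6 genes do. By sequence family, CG5853 belongs to the ABCG group of ABC transporters, which includes the eye pigment transporter white. CG31300 belongs to the EcKinase-like proteins, some of which are thought to phosphorylate ecdysteroids. CG33110 belongs to the ELOVL elongases, which lengthen very long chain fatty acids. Myo28B1 is an unconventional myosin, an actin-based motor. No role is given here for CG14186, and the annotation used names neither a symbol nor a position for FBgn0033981.

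In Canton-S B the 6 genes split into a day group and a night group. CG5853, CG31300 and FBgn0033981 were highest by subjective day, with fitted 24-h peaks at 7.33 h, 6.44 h and 7.74 h. Myo28B1, CG14186 and CG33110 were highest by subjective night, with fitted peaks at 17.9 h, 18.9 h and 20.6 h. In DGRP_892 each had a smaller fitted amplitude (log2, from mean to peak, least squares over the 72 libraries of a line). The amplitudes were 0.276 in Canton-S B and 0.045 in DGRP_892 for CG5853, 0.216 and 0.037 for CG31300, and 0.346 and 0.116 for FBgn0033981. Those of the night group were 0.22 and 0.064 for Myo28B1, 0.199 and 0.034 for CG14186, and 0.188 and 0.057 for CG33110. Of all genes tested, 660 (6.06%) passed 0.05 for a 24-h rhythm in Canton-S B and 52 (0.477%) in DGRP_892.

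**Figure D1:**
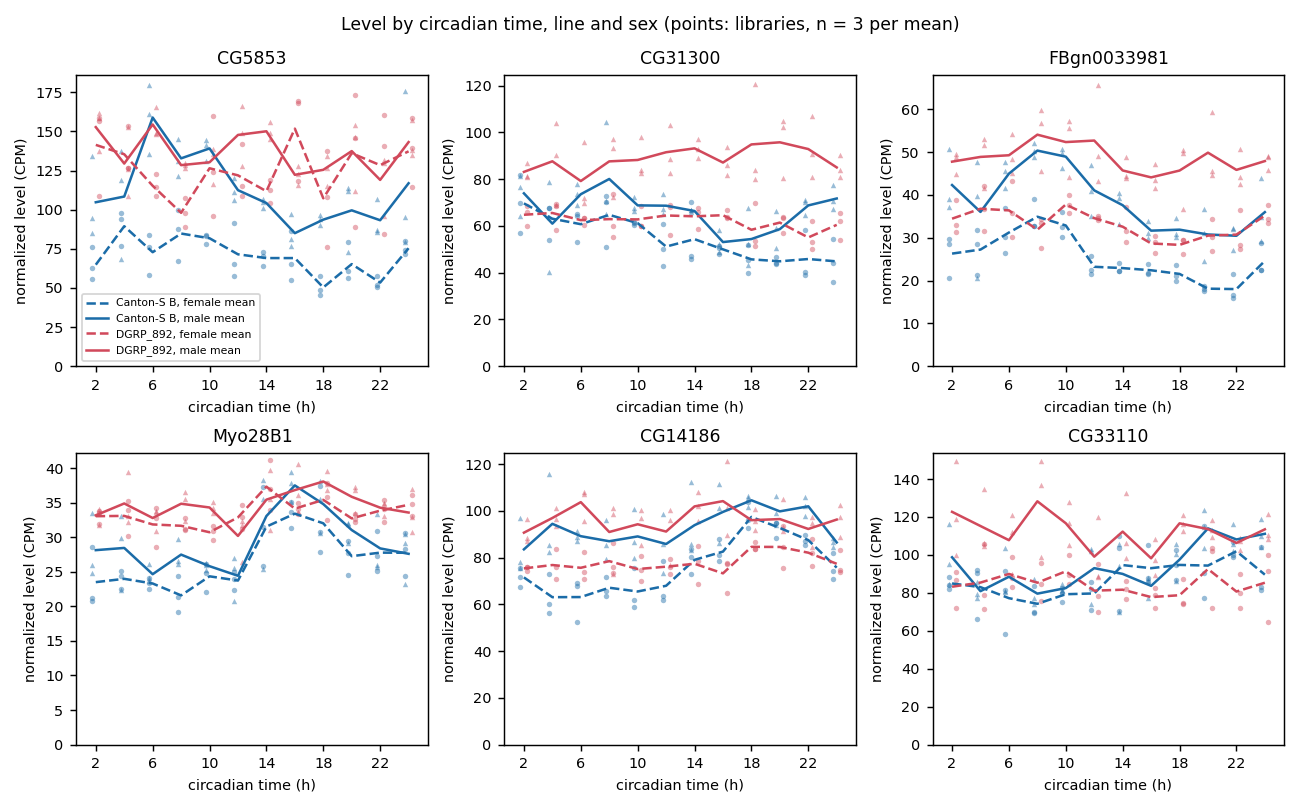
Normalized level (CPM) against circadian time in hours for each of the 6 genes, the day group above and the night group below. Points are libraries (circles female, triangles male), lines are means of 3 libraries, blue is Canton-S B and red is DGRP_892; the Canton-S B means swing by 1.33-fold (CG14186) to 1.76-fold (FBgn0033981) over both sexes, and the DGRP_892 means by 1.09-fold to 1.3-fold.

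FBgn0033981 had the widest swing of the 6 in Canton-S B. Its 3 Canton-S B female libraries held 39.1, 32.8 and 32.8 CPM at CT8 and 21.4, 16.7 and 15.9 CPM at CT22. In Canton-S B males the libraries held 48.8, 50.1 and 52.1 CPM at CT8 and 32.2, 27.1 and 32.1 CPM at CT22. In each sex all libraries of CT8 lay above all of CT22, and the highest and lowest of the 12 time means differed by 1.94-fold in females and 1.65-fold in males. Here and for the other genes, the times compared were picked as highest and lowest, so a lack of overlap is favoured by the pick. In DGRP_892, FBgn0033981 kept a day-high shape at a higher floor. Its highest female mean, at CT10, came from libraries of 37.5, 35.8 and 39.9 CPM, and its lowest, at CT18, from 26.1, 29.5 and 29.4 CPM, a ratio of 1.33 without overlap. In DGRP_892 males the highest mean, at CT8, came from 56.8, 45.5 and 59.9 CPM and the lowest, at CT16, from 41.5, 47.2 and 43.6 CPM, and these libraries overlapped.

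CG5853 (FBgn0032167, chromosome 2L, 9940773 to 9947648, minus strand) is the ABCG-type transporter. In Canton-S B males its libraries held 179.7, 135.7 and 161.4 CPM at CT6, the highest mean, and 80.98, 97.02 and 77.08 CPM at CT16, the lowest. In Canton-S B females they held 97.7, 94.1 and 76.6 CPM at CT4 and 57.4, 48.5 and 45.2 CPM at CT18. The high and low libraries did not overlap in either sex, with ratios of 1.87 in males and 1.78 in females. In DGRP_892 the highest and lowest times differed between the sexes. The female means were highest at CT16 (168.03, 118.04 and 169.38 CPM) and lowest at CT8 (88.98, 97.78 and 107.3 CPM), near the time at which Canton-S B was high. The male means of DGRP_892 were highest at CT6 (166, 148 and 149 CPM) and lowest at CT22 (131.5, 96.1 and 129.6 CPM). In both sexes of DGRP_892 the libraries of these high and low times did not overlap either.

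CG31300 (FBgn0051300, chromosome 3R, 25283620 to 25285224, plus strand) is the EcKinase-like gene. Canton-S B females held 81.9, 57.1 and 69.9 CPM at CT2 and 35.8, 44.2 and 54.5 CPM at CT24, and Canton-S B males 104.3, 65.1 and 70.8 CPM at CT8 and 58.1, 48.9 and 52.2 CPM at CT16. The single library of 104.3 CPM set the male maximum, and the other libraries of CT8 lay within or below the 68.8 to 78.1 CPM of CT6. In DGRP_892 the means over both sexes stayed between 70.8 and 78.6 CPM at all 12 times, a ratio of 1.11, against 50.04 to 72.4 CPM in Canton-S B. In each sex of DGRP_892 the libraries of the highest time overlapped those of the lowest.

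Across all 3 day genes, 1 library stood apart. The Canton-S B male library of CT4 with replicate number 1 was the lowest of the 36 Canton-S B male libraries for CG5853 (68.7 CPM), CG31300 (40.2 CPM) and FBgn0033981 (20.6 CPM). It ranked 6 to 22 from the lowest for the night genes. Without it the fitted Canton-S B amplitudes were 0.293 for CG5853, 0.237 for CG31300 and 0.364 for FBgn0033981, each slightly larger than with it. This comparison was added after the values were seen.

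Myo28B1 (FBgn0040299, chromosome 2L, 7666047 to 7689459, plus strand) is the unconventional myosin gene. Its Canton-S B course was low through the subjective day and high early in the night. Means over both sexes stayed between 24.0 and 26.2 CPM from CT2 to CT12, stood at 32.3 ± 5.69 CPM (SD, n = 6) at CT14, were highest at CT16 with 35.5 ± 2.9 CPM, and were back at 29.2 ± 2.8 CPM at CT20. At CT16 the female libraries held 35.2, 33.7 and 31.4 CPM and the male ones 35.2, 37.8 and 39.5 CPM, and all 6 lay above all 6 libraries of CT6, CT8 and CT10. In DGRP_892 the means ran from 31.5 CPM at CT12 to 36.8 CPM at CT18, so its lowest mean was above 9 of the 12 Canton-S B means. The 6 libraries of DGRP_892 at CT16 averaged 35.5 ± 2.71 CPM, beside the Canton-S B mean of 35.5 ± 2.9 CPM at its maximum.

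CG14186 (FBgn0036935, chromosome 3L, 20098084 to 20103827, minus strand) was highest at CT18 in both sexes of Canton-S B. The female libraries held 103.7, 92.5 and 96.1 CPM at CT18 and 59.995, 72.8 and 56.4 CPM at CT4, their lowest time, a ratio of 1.54. The male libraries held 105.6, 106.3 and 101.7 CPM at CT18 and 97.02, 77.975 and 75.65 CPM at CT2, a ratio of 1.25. The fitted amplitude was 0.287 in Canton-S B females, where the cosine took up 72.8% of the variance between libraries, and 0.111 in males, where it took up 21.8%. In DGRP_892 it was 0.056 in females and 0.025 in males. The means of DGRP_892 over both sexes stayed between 83.04 and 90.5 CPM, inside the Canton-S B range of 76.15 to 100.98 CPM.

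CG33110 (FBgn0053110, chromosome 3R, 22570188 to 22580392, plus strand) is the ELOVL-type elongase gene. It was highest late in the subjective night of Canton-S B, at CT22 in females (3 libraries between 99.05 and 106.7 CPM) and at CT20 in males (123.5, 103.9 and 114.6 CPM). It was lowest at CT8 in both sexes, with 69.7, 69.5 and 83.4 CPM in females and 77.2, 87.2 and 74.3 CPM in males, so that no library of the high time overlapped one of the low time. In DGRP_892 males the mean at CT20 was 113.6 CPM, and the fitted amplitude was 0.067, with 6.38% of the variance between libraries. Their highest mean was at CT8, from libraries of 136.6, 149.3 and 98.9 CPM, and their lowest at CT16, from 89.2, 108.3 and 97.1 CPM. In DGRP_892 females the highest mean was at CT20 (103.8, 72.1 and 101.8 CPM) and the lowest at CT16 (82.4, 71.8 and 79.1 CPM). In both sexes of DGRP_892 these libraries overlapped.

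Each line was also read as 6 series of 12 libraries, 1 for each sex and replicate number, and a cosine was fitted to each series. The series reuse the libraries and the measure that the choice used, so a separation of the lines is favoured by it. For Myo28B1 and FBgn0033981 the amplitudes of the 2 lines did not overlap. Myo28B1 had amplitudes of 0.174 to 0.326 (median 0.236) in the 6 Canton-S B series and 0.029 to 0.122 (median 0.0975) in the 6 of DGRP_892, and FBgn0033981 had 0.236 to 0.457 (median 0.345) and 0.051 to 0.228 (median 0.113). For CG14186 the ranges were 0.082 to 0.326 and 0.013 to 0.11, and for CG33110 0.126 to 0.259 and 0.041 to 0.179. For CG5853 they were 0.211 to 0.396 and 0.018 to 0.285, and for CG31300 0.083 to 0.385 and 0.046 to 0.162, so the lines overlapped in these 4 genes.

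Fitted peak times were closer together in Canton-S B than in DGRP_892 for all 6 genes, with the farthest series 1.2 to 3.21 h from the circular mean of its gene in Canton-S B and 2.44 to 8.67 h in DGRP_892. The 6 Canton-S B series of CG5853, CG33110, CG14186 and FBgn0033981 all peaked within 3 h of their circular mean, as did 5 of 6 for CG31300 and Myo28B1. In DGRP_892 the count within 3 h was 6 of 6 for FBgn0033981, whose 6 peaks lay around 6.72 h, 5 of 6 for Myo28B1, around 18.3 h, and 4 of 6 for CG14186. It was 3 of 6 for CG33110, 2 of 6 for CG5853 and 1 of 6 for CG31300. The largest single DGRP_892 amplitude of any day gene was that of CG5853 in females with replicate number 1, 0.285, and its fitted peak was at 23.2 h rather than by day. Where an amplitude is small, the fitted peak time is poorly set, so the scatter in DGRP_892 and the small amplitudes are not separate observations. The pooled DGRP_892 amplitudes moved accordingly when a replicate number was left out, to between 0.036 and 0.127 for CG5853 (0.127 without number 2), 0.017 and 0.078 for CG31300 (0.017 without number 2, 0.078 without number 3 and 0.066 without number 1), and 0.013 and 0.106 for CG33110 (0.013 without number 2 and 0.106 without number 3). That of CG14186 was 0.055 without number 2. Each of these stayed below the Canton-S B amplitude of the same gene, an order that the choice favours.

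**Figure D2:**
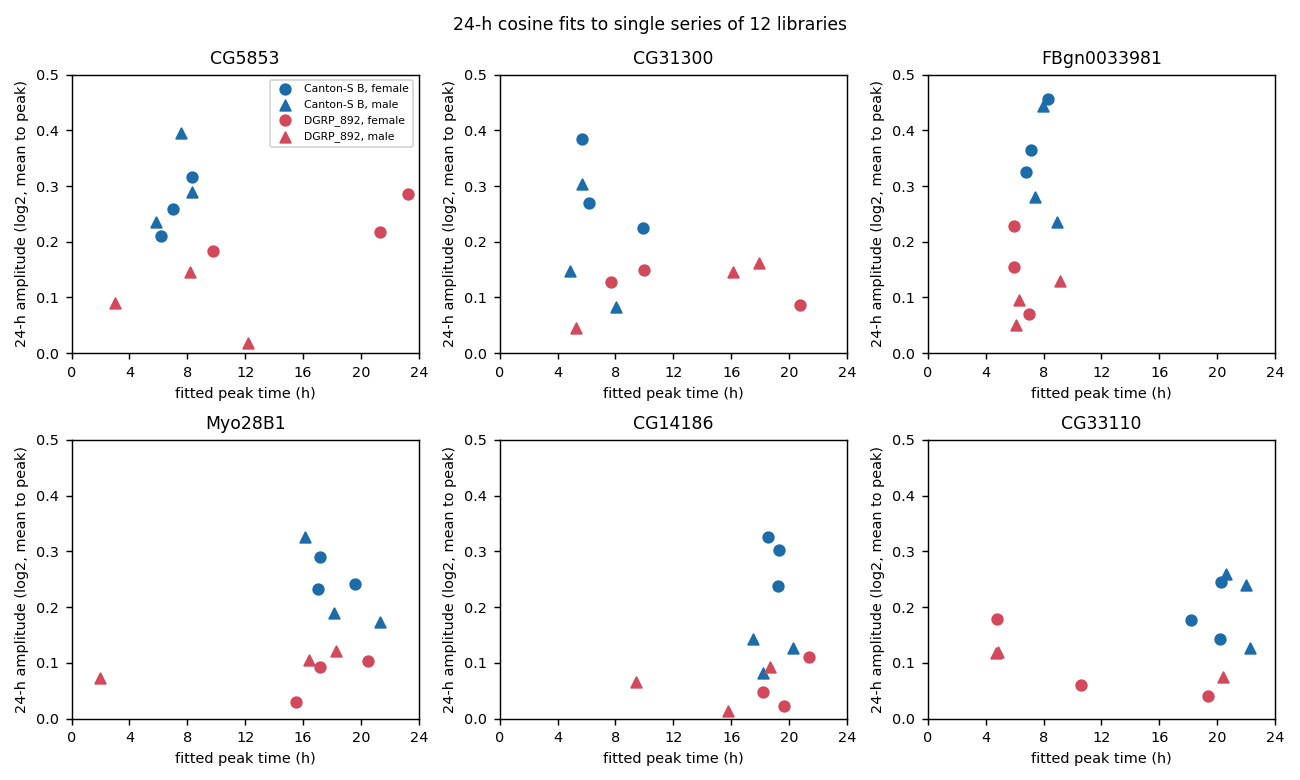
Fitted 24-h amplitude (log2, mean to peak) against fitted peak time in hours, 1 point for each series of 12 libraries of 1 sex and replicate number (circles female, triangles male, blue Canton-S B, red DGRP_892). Canton-S B points lie between 4.83 and 9.88 h for the day group and between 16.1 and 22.2 h for the night group, and the DGRP_892 points of FBgn0033981 all lie within 3 h of their mean peak, with 1 to 5 of 6 doing so for the others.

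The line difference varied with the time of day, which the choice by line difference of 24-h amplitude favours. Most of the times named here are the closest or farthest of the 12, so this is a description only. For the 3 day genes, DGRP_892 was close to Canton-S B at CT8, by 0.09 (log2, mean of 6 libraries a line) for CG5853, 0.06 for CG31300 and -0.02 for FBgn0033981, and higher by 0.75, 0.58 and 0.72 at CT20. The difference of CG5853 was not small throughout the subjective day, since its largest value, 0.84, was at CT2. For Myo28B1 the line means were closest at CT16, with a difference of 0.00, and differed by 0.45 at CT8. CG14186 and CG33110 crossed instead: DGRP_892 was higher by 0.24 for CG14186 at CT6 and lower at CT18, where the difference was -0.16, and for CG33110 it was higher by 0.44 at CT8 and lower at CT22, with -0.18. No time mean of DGRP_892 lay below the lowest Canton-S B time mean for any of the 6. Above the highest Canton-S B time mean lay 11 of 12 DGRP_892 means of CG5853, 11 of CG31300, 5 of FBgn0033981, 3 of Myo28B1, 1 of CG33110 and none of CG14186.

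**Figure D3:**
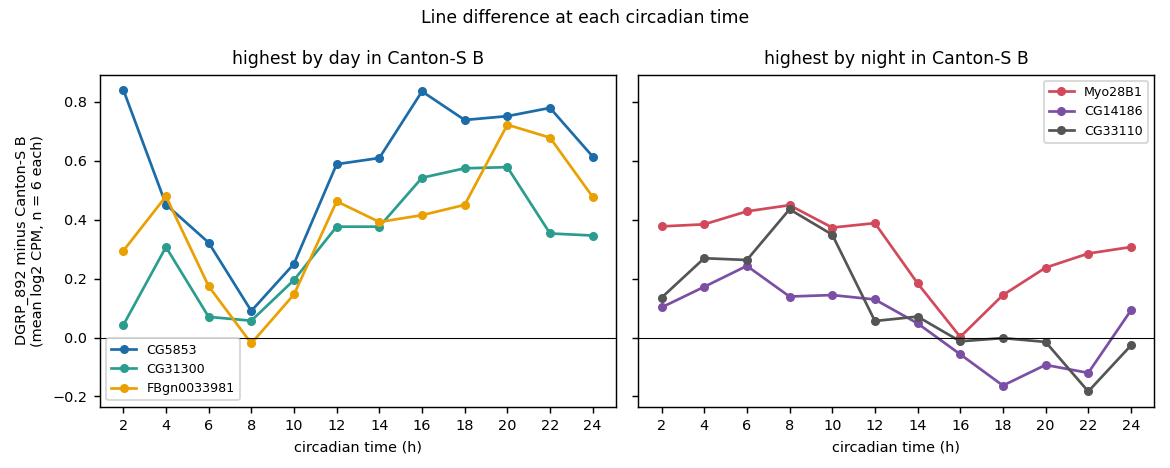
Difference of mean log2 CPM, DGRP_892 minus Canton-S B, at each of the 12 circadian times (6 libraries of each line per point), with the day group left and the night group right. CG5853 and FBgn0033981 come closest to 0 at CT8, with 0.09 and -0.02, CG31300 at CT2 with 0.04, and Myo28B1 at CT16 with 0.00, while CG14186 and CG33110 lie below 0 at CT16 to CT22.

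The mean level over all 12 times was not used in the choice, and it was higher in DGRP_892 for all 6 genes. CG5853 averaged 91.6 ± 30.6 CPM in Canton-S B and 131.4 ± 22.8 CPM in DGRP_892 (SD, n = 72 each), a log2 difference of 0.57 ± 0.04 (SE; adjusted p 6.21e-24, edgeR quasi-likelihood test with Benjamini-Hochberg adjustment over 10894 genes). FBgn0033981 (31.9 ± 9.84 and 40.9 ± 9.41 CPM) differed by 0.39 ± 0.03 (adjusted p 5.21e-20), CG31300 (60.6 ± 12.8 and 75.5 ± 16.1 CPM) by 0.31 ± 0.03 (8.41e-15) and Myo28B1 (27.99 ± 4.97 and 33.995 ± 2.72 CPM) by 0.29 ± 0.02 (8.17e-21). The differences of CG33110 (90.6 ± 14.4 and 98.5 ± 19.3 CPM), 0.11 ± 0.03 with adjusted p 0.00132, and of CG14186 (84.5 ± 14.5 and 87.2 ± 11.9 CPM), 0.05 ± 0.02 with adjusted p 0.0416, were small. Of all genes tested, 67.1% passed this test, 32.7% as higher and 34.4% as lower in DGRP_892. The call of CG14186 was lost in 7 of the alternative fits, among them the fit without replicate number 3 (difference 0.02, adjusted p 0.685), and that of CG33110 within the deeper libraries alone (0.13, adjusted p 0.0647) and with ERCC spike-in totals as scale (0.08, adjusted p 0.613).

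These are bulk libraries, in which more cells of a type and more RNA per cell cannot be told apart. Fat body markers moved with the line: 5 of 5 tested were higher in DGRP_892, with sums of 12500 to 26500 CPM in DGRP_892 females and 6660 to 16600 in males against 4200 to 9630 and 3060 to 6330 in Canton-S B. Muscle markers, 6 of 6, were lower in DGRP_892, with medians of 1730 CPM in females and 1390 in males against 2460 and 1630. Oenocyte and cuticular hydrocarbon synthesis markers, 3 of 3 tested, were higher in DGRP_892, with medians of 4330 CPM in females and 2890 in males against 3320 and 2850. Of the neuron markers 4 of 7 were lower and 0 higher, of haemocyte markers 4 of 6 were lower and 1 higher, of glia markers 3 of 6 were lower and 1 higher, and of photoreceptor markers 3 of 8 were lower and 4 higher. Their part in the line difference of the 6 genes was not tested.

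The line difference was not the same in females and males for 3 of the 6 genes. CG5853 differed by 0.84 ± 0.06 (log2, SE) in females, from 70.7 ± 14.6 to 125.96 ± 26.5 CPM, and by 0.30 ± 0.06 in males, from 112.45 ± 28.1 to 136.75 ± 17.03 CPM (SD, n = 36 each). The interaction, males minus females, was -0.54 ± 0.08 with adjusted p 2.72e-07. In females DGRP_892 lay above Canton-S B at 12 of 12 times, at 11 of them with no overlap between the 3 libraries of each line, and in males at 9 of 12 and 5 of them. How often the libraries of other genes did not overlap was not counted, so these counts only describe CG5853. CG31300 and CG33110 went the other way. CG31300 differed by 0.20 ± 0.05 in females, from 54.7 ± 11.2 to 62.2 ± 5.81 CPM, and by 0.42 ± 0.05 in males, from 66.6 ± 11.6 to 88.8 ± 11.3 CPM, with an interaction of 0.22 ± 0.07 (adjusted p 0.0136). CG33110 had no line difference past 0.05 in females, with 87.2 ± 13.2 and 84.4 ± 10.8 CPM (-0.04 ± 0.05, adjusted p 0.431), and was higher in DGRP_892 males, at 112.5 ± 15.3 against 93.96 ± 14.8 CPM (0.27 ± 0.05, adjusted p 2.08e-07), with an interaction of 0.31 ± 0.06 (adjusted p 1.62e-04). This interaction passed 0.05 in 12.7% of all genes, 5.71% with a positive and 6.96% with a negative value.

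Myo28B1 and FBgn0033981 were higher in DGRP_892 in both sexes, by 0.34 ± 0.03 and 0.42 ± 0.05 in females (59.9% of all genes called, 29.6% higher and 30.4% lower) and by 0.25 ± 0.03 and 0.36 ± 0.05 in males (54.9% called, 26.8% higher and 28.1% lower). Their interactions did not pass, at -0.09 ± 0.05 (adjusted p 0.225) and -0.06 ± 0.07 (adjusted p 0.64). CG14186 passed in neither sex alone, with 0.05 ± 0.03 in each (adjusted p 0.175 in females and 0.17 in males). With ERCC totals as scale, none of the 6 passed in males, with adjusted p from 0.062 (CG31300, 0.34) to 0.91 (CG14186, -0.03), and in females the calls of CG31300 (0.18, adjusted p 0.428) and Myo28B1 (0.34, adjusted p 0.0766) were lost. In the deeper libraries alone the female call of CG31300 was lost as well (0.14, adjusted p 0.121). The 3 interactions that passed were lost on the ERCC scale and within the deeper libraries alone, where 66 genes passed instead of 1380, with values in the deeper libraries of -0.53, 0.15 and 0.37 for CG5853, CG31300 and CG33110 (adjusted p 0.133, 1 and 0.205). On the ERCC scale the values were -0.67, 0.16 and 0.21 (adjusted p 0.133, 1 and 1), so that of CG5853 was larger there than on the CPM scale. That of CG31300 was also lost without replicate number 2 (0.23, adjusted p 0.0825) or 3 (0.21, adjusted p 0.173) and within the shallower libraries (0.19, adjusted p 0.126), and that of CG33110 without replicate number 1 (0.23, adjusted p 0.0506).

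**Figure D4:**
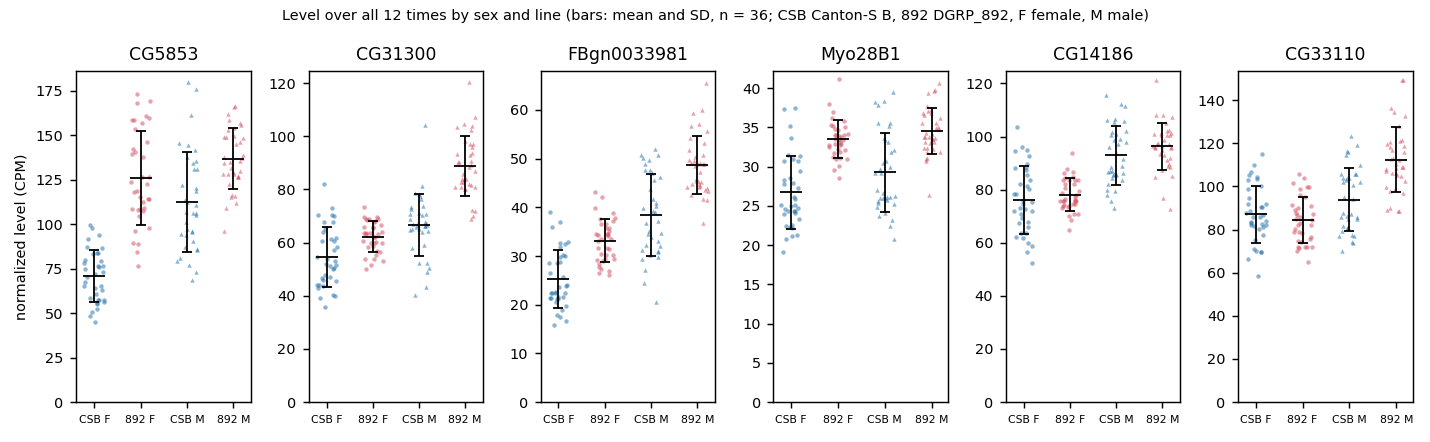
Normalized level (CPM) of the 6 genes over all 12 times, 1 point for each library, by line and sex (F female, M male; bars are mean and SD, n = 36 each). CG5853 is lowest in Canton-S B females (70.7 CPM), and CG33110 is highest in DGRP_892 males (112.5 CPM).

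All 6 genes were higher in males over both lines. FBgn0033981 had the largest difference, 0.59 ± 0.03 (log2, male minus female; adjusted p 1.24e-31), from 25.3 ± 6.0 CPM in females to 38.5 ± 8.4 CPM in males of Canton-S B and from 33.1 ± 4.41 to 48.7 ± 6.03 CPM in DGRP_892. CG31300 and CG5853 were higher by 0.40 ± 0.03 (adjusted p 3.43e-20) and 0.40 ± 0.04 (adjusted p 6.64e-15). CG14186 was higher by 0.30 ± 0.02 (adjusted p 5.13e-22), with the same 0.30 ± 0.03 in each line, and CG33110 by 0.26 ± 0.03 (adjusted p 8.11e-12). Myo28B1 differed least, by 0.09 ± 0.02 (adjusted p 5.53e-04), and its call was lost within the deeper (0.09, adjusted p 0.105) and within the shallower libraries (0.06, adjusted p 0.119). Of all genes, 65.8% passed this test, 36.3% as higher and 29.4% as lower in males. With ERCC totals as scale the median over all genes was 0.23 higher in males, against 0.03 here.

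Within Canton-S B all 6 passed as higher in males (55% of genes called, 30.1% higher and 24.9% lower), and CG5853 was the most uneven, at 0.67 ± 0.06. The call of CG33110 there (0.10 ± 0.05, adjusted p 0.0444) was lost in 5 alternatives, among them those without replicate number 2 (0.09, adjusted p 0.0985) or 3 (0.07, adjusted p 0.374), and that of Myo28B1 (0.14 ± 0.03, adjusted p 3.64e-04) within the deeper (0.11, adjusted p 0.202) and the shallower libraries (0.09, adjusted p 0.114). Within DGRP_892 (56.7% called, 31% higher and 25.7% lower) 4 of the 6 passed, and CG5853 (0.12 ± 0.06, adjusted p 0.0618) and Myo28B1 (0.04 ± 0.03, adjusted p 0.256) did not. CG5853 passed there with runs of 24 library numbers as a block (0.15, adjusted p 0.0146) and in the authors' batch-corrected values (0.15, adjusted p 0.0148). Ordered by level, CG5853 thus ran from Canton-S B females through Canton-S B males to DGRP_892 females and males, with the last pair not separated by the test and the middle pair not compared. Markers of neurons, 7 of 7, were higher in males, with medians of 4210 and 3790 CPM in Canton-S B and DGRP_892 against 3320 and 3080 CPM in females, while fat body markers, 5 of 5, and haemocyte markers, 6 of 6, were lower. Their part in the sex difference was not tested.

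The sexes' rhythms were not shown to differ for any of the 6. In the test of sex by 24-h rhythm, averaged over the lines, 41 genes passed (0.376%) and none of the 6 did. CG14186, with the larger swing in Canton-S B females, came closest, with a difference vector of 0.11 on the log2 scale (adjusted p 0.188). The test of line by sex by 24-h rhythm passed in 0 genes (0%) by edgeR and in 0 by DESeq2, with 339 genes at an unadjusted p under 0.05, and gave an adjusted p of 0.998 for each of the 6. Fitted amplitudes of Canton-S B females and males stood at 0.255 and 0.297 for CG5853, 0.264 and 0.172 for CG31300, 0.376 and 0.317 for FBgn0033981, 0.243 and 0.196 for Myo28B1, and 0.183 and 0.204 for CG33110.

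A 12-h component, which would show as a course with 2 maxima a day or as a sharper step, passed in 4 genes (0.0367%) in Canton-S B, in 28 (0.257%) in DGRP_892 and in 3 (0.0275%) for the line difference, and none of the 6 was among them. Myo28B1 in Canton-S B came closest, with a 12-h amplitude of 0.11 (log2, adjusted p 0.0588, 8.09e-05 before adjustment) and maxima at 4.08 h and 12 h later, the later one beside its CT16 maximum. The adjusted p of this value ran from 0.0227 to 1 over the alternatives, and it was 0.0309 by DESeq2. Replicate number, tested beside the group means, passed in 16.2% of all genes and in none of the 6, with CG14186 closest (adjusted p 0.0636, and 0.0347 in the authors' batch-corrected values).

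Myo28B1 lies over the gene Slob, which encodes a protein that binds and tunes the Slowpoke potassium channel. The 2 genes are on opposite strands and share no exon bases in the annotation. Over the 48 group means, each centred within line and sex, the time course of Slob was the most like that of Myo28B1 of all genes tested (Pearson r 0.887, 0.921 over the 24 groups of Canton-S B and 0.712 over those of DGRP_892). In Canton-S B, Slob stood at 434.6 ± 101.2 CPM at CT8 and 808 ± 136.1 CPM at CT16 (SD, n = 6), with a fitted amplitude of 0.31 at 18.1 h. In DGRP_892 it stood at 517.7 ± 100.9 and 570.5 ± 111.4 CPM, with an amplitude of 0.09. Mean levels did not run in parallel, since Slob was lower in DGRP_892 by a log2 difference of -0.11 ± 0.04 (adjusted p 0.00886) while Myo28B1 was higher. The sources used here do not say whether the counting used strand, so reads of introns or unannotated exons of Slob that were counted for Myo28B1 cannot be told apart from its own.

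**Figure D5:**
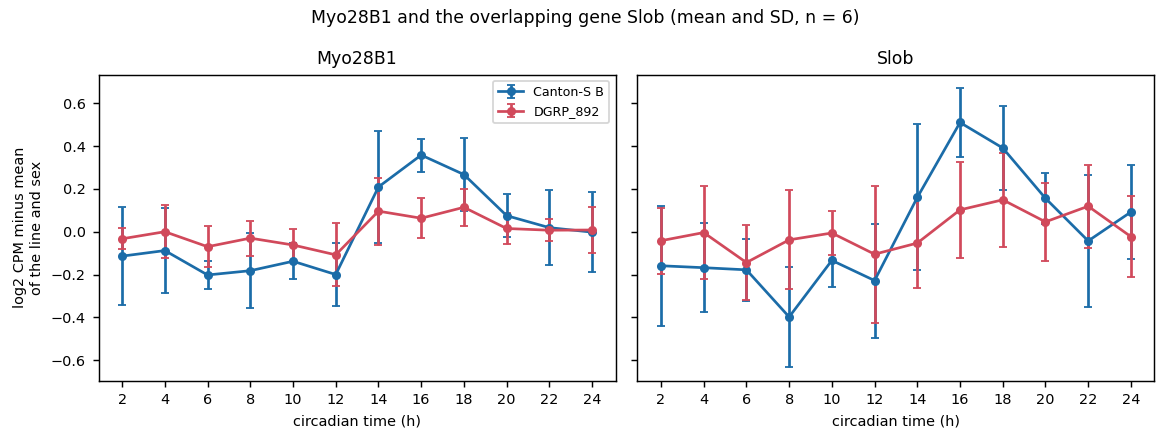
Mean log2 CPM of Myo28B1 and of the overlapping gene Slob at each circadian time, centred on the mean of each line and sex (points are means and bars SD of 6 libraries; blue Canton-S B, red DGRP_892). Both are highest at CT16 in Canton-S B, by 0.36 for Myo28B1 and 0.51 for Slob, and flatter in DGRP_892.

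CG5853 shares 1853 of its 2623 exon bases with CG4619 on the opposite strand. Its counts thus also depend on whether the counting used strand, here for reads of shared exons. How such reads were assigned was not tested. CG4619 did not move with it: its levels were 35.8 ± 2.69 CPM in Canton-S B and 28.8 ± 3.18 CPM in DGRP_892 (-0.32 ± 0.02, adjusted p 1.14e-24), its Canton-S B amplitude was 0.03 and the r of the 2 time courses was 0.031. Myo28B1 also overlaps CG18585, which averaged below 1 CPM in each line. CG31300 lies between CG11892 and CG31104, 2 other EcKinase-like genes at 8.54 and 0.926 CPM in Canton-S B with amplitudes of 0.08 each. The neighbours of CG33110 are sit, another ELOVL gene, whose fitted peak in Canton-S B was at 20.4 h with an amplitude of 0.14 and an adjusted p of 0.0637, and CSN6, with an amplitude of 0.03. Beside CG14186, the neuropeptide receptor gene sNPF-R had an amplitude of 0.01 in Canton-S B.

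The genes whose time courses were most like those of the 6 differed between the groups. They are named by rank of Pearson r over the 48 group means, and r is a description, since these means share libraries and depth. Of the genes named below, gol, Usp8, per, eys, lncRNA:CR45564 and CG33965 also passed 0.05 for the line difference of the 24-h rhythm. A like course over both lines is favoured for genes that share this trait. After Slob, those nearest to Myo28B1 were gol, a ubiquitin ligase gene (0.864), Usp8, a deubiquitinase gene (0.84), the clock gene per (0.835) and Gp210 (0.794), a nuclear pore gene. CG14186 was most like Nepl3 (0.817), a neprilysin-like gene, and eys (0.782), which encodes a matrix protein between the photoreceptor rhabdomeres, followed by CG9760 (0.775), gol (0.766) and Usp8 (0.743). CG33110 had lower values, with CG15414 (0.597), CG32198 (0.578), lncRNA:CR45564 (0.539), mRpS11 (0.538), a mitochondrial ribosomal protein gene, and CG5644 (0.526), of which CG32198 and lncRNA:CR45564 averaged below 1 CPM. FBgn0033981 was most like CG15553 (0.839), Nepl18 (0.809), Nopp140 (0.789), a nucleolar protein gene, r (0.768), which encodes an enzyme of pyrimidine synthesis, and CG11180 (0.766). CG31300 was most like Tep4 (0.728), an immune thioester protein gene, CG11180 (0.722), nebu (0.673), CG33965 (0.668) and Noc2 (0.666). CG5853 was most like modSP (0.728), a protease gene of immune signalling, Keap1 (0.696), Mtpalpha (0.681), CG4306 (0.667) and whd (0.655), with Mtpalpha and whd both of fatty acid oxidation in mitochondria. A like course did not mean a like amplitude. In Canton-S B the partners of CG5853 had amplitudes of 0.12 (modSP), 0.06 (Keap1), 0.07 (Mtpalpha), 0.31 (CG4306) and 0.09 (whd) beside its own 0.276, and those of CG31300 had 0.09 (Tep4), 0.20 (CG11180), 0.09 (nebu), 0.79 (CG33965, at 2.65 CPM) and 0.15 (Noc2) beside 0.216.

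Among themselves, the 6 courses had correlations of larger size in Canton-S B than in DGRP_892 in every pair. The choice by line difference of 24-h amplitude favours this, since all 6 had the larger amplitude in Canton-S B. The weaker correlations in DGRP_892 are thus not an observation separate from the small amplitudes. FBgn0033981 and CG5853 had r 0.784 over the 24 Canton-S B groups and 0.158 over those of DGRP_892, and FBgn0033981 and CG31300 had 0.77 and 0.176. CG14186 and Myo28B1 had 0.716 and 0.305. The opposed pair CG14186 and FBgn0033981 kept its sign, with -0.785 in Canton-S B and -0.516 in DGRP_892. Other opposed pairs turned, among them CG33110 and FBgn0033981, with -0.707 and 0.42, and CG31300 and Myo28B1, with -0.72 and 0.117.

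Relatives of the 6 were counted by family, to be read against the shares of all genes tested that passed the same tests, which were 32.7% as higher and 34.4% as lower in DGRP_892, 6.06% for a 24-h rhythm in Canton-S B and 0.477% in DGRP_892. Of 13 other ABCG-type transporter genes tested, 5 were higher and 7 lower in DGRP_892 (median log2 difference -0.07, all genes -0.01), 2 passed for a 24-h rhythm in Canton-S B and 0 in DGRP_892. The most abundant were CG31689 (297 CPM, Canton-S B amplitude 0.08) and CG4822 (154 CPM, 0.12). Among the higher ones was w, the gene of white, at 0.235 CPM in Canton-S B, whose label names w1118, and 29.9 CPM in DGRP_892. Of 15 other ELOVL genes, 5 were higher and 9 lower (median -0.15), and 2 passed for rhythm in Canton-S B and 0 in DGRP_892, with CG31523 (318 CPM) and Baldspot (231 CPM) the most abundant, at amplitudes of 0.06 and 0.04. The 5 higher ones were all near the floor, with means from 0.118 CPM (CG6660) to 1.57 CPM (CG30008). Elo68alpha (0.382 CPM) and Elo68beta (0.132 CPM), both lower, were near it as well. CG30008, which passed for rhythm, stood at 1.1 ± 3.27 CPM (SD) in Canton-S B. Of 40 other EcKinase-like genes, 26 were higher and 12 lower (median 0.23), and 3 passed for rhythm in Canton-S B and 1 in DGRP_892; pkm (984 CPM) and CG10550 (230.0 CPM) were the most abundant, with amplitudes of 0.07 each. Of 11 other myosin heavy chain genes, 2 were higher and 8 lower (median -0.12), and 1 passed for rhythm in Canton-S B and 0 in DGRP_892, namely ninaC, the photoreceptor myosin (3280.0 CPM, amplitude 0.08), with Mhc of muscle (790.0 CPM) at 0.09. In the test of line by 24-h rhythm, which 0.174% of all genes passed, 0 of these relatives did, a count that such a low share does not set apart from all genes.

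Of 8 core clock genes, 4 passed for a 24-h rhythm in Canton-S B (6.06% of all genes) and 1, Clk, in DGRP_892 (0.477%), and per alone passed for the line difference (0.174%), with amplitudes of 0.58 in Canton-S B and 0.20 in DGRP_892. In tim, the partner of per, the amplitudes were 0.12 and 0.08. The amplitude of FBgn0033981 in Canton-S B was thus above that of every core clock gene but per, and those of the other 5 genes lay between the values of tim and per. The 6 genes were chosen by the line difference of this measure and the clock genes by name. High ranks of the 6 are thus favoured by the choice.

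Scaled to ERCC spike-in totals instead of gene counts, the amplitudes of DGRP_892 were larger. A 24-h cosine fitted to the ratio of gene counts to ERCC counts had an amplitude of 0.17 with a peak at 1.71 h in DGRP_892, and 0.066 in Canton-S B. It took up only 4.19% and 0.716% of the variance, on a library-to-library SD of 0.59 and 0.555 (log2), and was not tested. On that scale the DGRP_892 amplitudes were 0.215 for CG5853, 0.133 for CG31300, 0.216 for CG33110, 0.167 for CG14186, 0.162 for Myo28B1 and 0.229 for FBgn0033981, and 5 of the 6 peaks lay between 0.24 and 2.38 h, among them that of CG5853, which lay at 1.24 h on the CPM scale. The Canton-S B amplitudes on that scale, 0.239, 0.195, 0.247, 0.242, 0.248 and 0.301 in the same order, were still larger in each gene. The choice by line difference of amplitude, made on the same libraries, favours this as well.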

How the data were processed

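The count table holds raw read counts per gene that the authors deposited, made with STAR 2.5.3a and featureCounts 1.5.2 on FlyBase release 6, per the labels and the submitters' processing notes. The authors also deposited TMM-normalized, batch-corrected values (a score, since the sources used here do not describe the correction); 3.31% of its values are below 0, and it served only as an alternative. The members and lists were chosen with earlier results of these data known. Spike-in counts (0.387% of counts) stayed out of library sizes.

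Counts were tested with edgeR 4.0.16 in R 4.3.3 by its quasi-likelihood test, with TMM scaling, a filter on low counts (minimum count 10, minimum total 15 over the 48 groups), and Benjamini-Hochberg adjustment over 10894 genes at 0.05. Line and sex levels are contrasts of the 48 group means, and rhythm tests use cosines of 24 h or 12 h. Amplitudes described by line, sex or series are least-squares cosine fits on the log2 CPM scale (prior count 2). Named beside the 6 genes are the 5 genes with the highest correlation of time course, the 2 most abundant relatives per family and relatives past 0.05 for the line difference of rhythm, and the annotated neighbours. Gene positions come from Ensembl's annotation of the BDGP6 build, which named 17239 of 17381 genes.

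Alternatives were DESeq2 1.42.0, its size factors in edgeR, no filter, ERCC totals as scale, runs of 24 library numbers as a block, the replicate number as a block, each replicate number left out, deeper or shallower libraries alone, a prior count of 0.5, and the batch-corrected values in limma 3.58.1 on log2(value + 20). The runs of 24 are a cut of the library numbering made here. Libraries were extracted in groups of 12, which no fit took as a block. P-values measure the spread between these libraries.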

Additional observations from a re-analysis of the deposited data

Results flagged for a closer look

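The line difference in level differed between females and males for 3 of the 6 genes by a test of the difference itself. The interaction, males minus females on the log2 scale, was -0.54 for CG5853, where the line difference was larger in females, and 0.22 for CG31300 and 0.31 for CG33110, where it was larger in males. Of all genes, 12.7% passed this test. All 3 calls were lost on the ERCC scale (-0.67, 0.16 and 0.21) and in the deeper libraries alone (-0.53, 0.15 and 0.37). That of CG31300 was also lost in the shallower libraries and without replicate number 2 or 3, and that of CG33110 without replicate number 1. Among the 12 sets of 6 series amplitudes, none held a value far from the others by Dixon's criterion of 0.625.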

How the results depend on the processing

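Of 912 alternative values for the 6 genes, 865 kept their side of 0.05 without a turn in direction. A turn could be seen only for level contrasts, since rhythm and replicate-number values have no sign. Of the other values, 36 lost the call, 5 gained one and 6 turned in direction. The 6 were small values. CG33110 between lines in females ran from -0.0857 to 0.0126 with 1 replicate number left out (0.0126 without number 1). CG14186 between lines in males turned on the ERCC scale (-0.0314). The line by sex interaction of CG14186 turned on the ERCC scale (-0.0842), with runs of 24 library numbers as a block (-0.0124) and in the deeper libraries (-0.0274). It also turned with 1 replicate number left out (-0.0174 without number 3, up to 0.0303). The cause was not tested.

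Percentages of genes past 0.05 moved by over 1.5 times as follows. On the ERCC scale they were 33.5 for line, 24.3 and 21.7 for line in females and males, 0.991 for line by sex, 24.9 for sex in DGRP_892, 1.84 for replicate number, 0.0734 for the 12-h rhythm in Canton-S B and 0.00918 for its line difference. In the deeper libraries they were 39.2 and 31.9 for line in females and males, 0.606 for line by sex, 40.2 for sex, 23.2 and 27.8 for sex in Canton-S B and DGRP_892, 1.33 for replicate number, 0 for sex by 24-h rhythm and 0.00918 for line by sex by 24-h rhythm. In the shallower ones they were 6.69 for replicate number, 0.00918 for sex by 24-h rhythm and 0.0275 for line by sex by 24-h rhythm. The 12-h tests gave 0 in each depth class alone and in the batch-corrected values, which also gave 0 for sex by 24-h rhythm. With no filter, sex by 24-h rhythm gave 2.98, line by sex by 24-h rhythm 0.306, and the 12-h tests 0.422 in Canton-S B, 0.453 in DGRP_892 and 0.147 for the line difference. For those 12-h tests DESeq2 gave 0.11, 0.0275 and 0.00918, and its size factors 0.0643 in Canton-S B. Runs of 24 library numbers as a block gave 0, 0.119 and 0.00918. With 1 replicate number left out, they ran from 6.15 to 10.7 for line by sex, 0.0275 to 0.11 for sex by 24-h rhythm, 0 to 0.0367 for line by sex by 24-h rhythm, and, for 12-h rhythms, 0 to 0.0734 in Canton-S B, 0 to 0.165 in DGRP_892 and 0 to 0.0184 for the line difference.

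Replicate numbers were not taken to pair the samples: deviations of same-numbered libraries correlated between lines with a median r of 0.0587 (29 of 72 pairs over 0.1) and between sexes with 0.081 (31 of 72). With the replicate block no call for the 6 genes changed, and the percentages were 0.22 for sex by 24-h rhythm, 0.0734 for the 12-h rhythm in Canton-S B and 0.00918 for its line difference.

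The counts for gene families under the alternatives were added after the data were seen. On the ERCC scale, the line test passed in 4 ABCG, 2 myosin and 5 clock genes, and the sex test in 5 ABCG and 7 clock genes. In the deeper libraries, the line test passed in 5 ABCG and 4 myosin genes and the sex test in 3 myosin genes. The sex test passed in 12 ELOVL genes by DESeq2 and 11 in the shallower libraries. It passed in 5 clock genes both with runs of 24 library numbers as a block and in the batch-corrected values. The line test for myosins passed in 5 to 10 genes with 1 replicate number left out.

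On the ERCC scale the DGRP_892 amplitudes were 0.215 (CG5853), 0.133 (CG31300), 0.216 (CG33110), 0.167 (CG14186), 0.162 (Myo28B1) and 0.229 (FBgn0033981), and that of CG33110 in Canton-S B was 0.247. No search for promoter motifs was run.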
